A study of Homo sapiens with 9 samples.

Results

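Cholesterol and fatty acid synthesis genes are described here in hTERT-MSC, a human adipose-derived mesenchymal stem cell line immortalised with telomerase. The 31 members were chosen by gene symbol in the deposited expression values, and all 31 were found among 62709 genes in the count data. All 31 also passed edgeR's expression filter, which kept 19426 genes for testing. The labels give the same protocol for every library: cells were starved of serum overnight, settled for 2 h on uncoated inserts with pores of 3 µm, and exposed to PDGF-BB (50 ng/mL) for 1 h. All 9 libraries carry the PDGF-BB label, so no group is free of the growth factor by its label. The 3 groups were pseudopodia, scraped from the lower side of the membrane, cell bodies, scraped from the upper side afterwards, and whole cells, whose collection is not described separately. Each group had 3 libraries of a single immortalised line, made with a kit for very small amounts of RNA. The labels do not say that the replicates were separate cultures, so p-values measure only the spread of these samples, which may be a technical spread.

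Cells make cholesterol from acetyl-CoA through mevalonate, farnesyl diphosphate, squalene and lanosterol, and make fatty acids from the same acetyl-CoA through malonyl-CoA. The mevalonate enzymes among the members work in the cytosol or in peroxisomes, whereas the enzymes after farnesyl diphosphate, the desaturases and the elongases are held in the endoplasmic reticulum (ER) membrane. Both pathways are driven by SREBP transcription factors, which lie in the ER membrane as precursors. When ER cholesterol is low, SCAP carries them to the Golgi for cleavage, and when it is high the INSIG proteins hold SCAP back. INSIG1 is itself a target of SREBP. In mesenchymal stem cells these enzymes supply membrane lipid, and their mRNAs are translated either free in the cytosol or on the ER surface.

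Promoters were read because most of these genes are known to answer to SREBP together with the factors NF-Y and SP1. The letters below are the 250 bases before the RefSeq start (GRCh38.p14), with CCAAT boxes in either orientation and the sterol response element core in capitals. SREBF2 is shown because it alone among the members in the sequence table held that core, INSIG1 because its cell body difference was the largest, HMGCS1 as an early enzyme of the mevalonate pathway, and MSMO1 and ACACA because they moved in opposite directions in pseudopodia.
SREBF2, chr22:41832855-41833104, plus strand: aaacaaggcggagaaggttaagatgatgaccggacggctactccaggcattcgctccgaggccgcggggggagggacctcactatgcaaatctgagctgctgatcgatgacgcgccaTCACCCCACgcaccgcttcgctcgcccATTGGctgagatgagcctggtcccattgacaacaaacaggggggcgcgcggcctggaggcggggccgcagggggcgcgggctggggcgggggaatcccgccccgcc
INSIG1, chr7:155297628-155297877, plus strand: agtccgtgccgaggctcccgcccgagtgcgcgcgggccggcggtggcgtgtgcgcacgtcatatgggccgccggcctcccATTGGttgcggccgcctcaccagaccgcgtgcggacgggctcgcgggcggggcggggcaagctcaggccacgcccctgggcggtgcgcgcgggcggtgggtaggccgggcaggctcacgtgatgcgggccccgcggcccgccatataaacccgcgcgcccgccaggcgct
HMGCS1, chr5:43313413-43313662, minus strand: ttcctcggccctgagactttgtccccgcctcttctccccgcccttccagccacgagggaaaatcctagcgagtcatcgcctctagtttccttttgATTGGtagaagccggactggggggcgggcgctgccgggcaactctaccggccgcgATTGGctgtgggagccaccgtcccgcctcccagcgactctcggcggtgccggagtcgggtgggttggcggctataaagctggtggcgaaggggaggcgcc
MSMO1, chr4:165327419-165327668, plus strand: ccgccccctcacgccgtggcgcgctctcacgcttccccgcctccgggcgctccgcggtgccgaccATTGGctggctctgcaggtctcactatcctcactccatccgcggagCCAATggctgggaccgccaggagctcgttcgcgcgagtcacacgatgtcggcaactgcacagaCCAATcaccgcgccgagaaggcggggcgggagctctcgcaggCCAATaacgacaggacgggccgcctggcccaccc
ACACA, chr17:37406837-37407086, minus strand: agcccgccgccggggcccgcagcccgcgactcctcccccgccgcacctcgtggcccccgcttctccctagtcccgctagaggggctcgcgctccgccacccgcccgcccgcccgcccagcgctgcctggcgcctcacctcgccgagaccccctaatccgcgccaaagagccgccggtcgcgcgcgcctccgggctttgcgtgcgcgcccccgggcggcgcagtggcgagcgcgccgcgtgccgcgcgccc
Of the 31 members, 27 had a promoter in the table. The core TCACNCCAC, searched on both strands, was in 1 of these 27 (3.7%) and in 0.883% of all 35116 promoters of the same length. In SREBF2 it read TCACCCCAC, its first base 133 bases before the start. CCAAT on either strand was in 17 of 27 members (63.0%), against 32.0% of all promoters and 34.3% of the promoters of 12776 tested genes. GGGCGG on either strand, the SP1 box, was in 25 of 27 (92.6%), against 42.6% of all promoters and 63.5% of those of tested genes. MSMO1 held 4 CCAAT boxes, HMGCS1 2, INSIG1 1 and ACACA none in this window. Matches on opposite strands may overlap and were counted separately, and the other sequence elements of these promoters were not examined.

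Libraries held 55469030 to 83894938 counts. Replicates spread most in pseudopodia, with a biological coefficient of variation of 32% over all tested genes, against 17.6% in cell bodies and 5.08% in whole cells. Mesenchymal markers were abundant in every library: the summed level of THY1, NT5E, ENG, CD44, PDGFRB, VIM and COL1A1 was 8538 to 10070 TPM in pseudopodia, 15790 to 17990 TPM in cell bodies and 17100 to 17560 TPM in whole cells. Of these 7 genes, 6 were lower in pseudopodia than in cell bodies and 0 higher, where 19.9% and 18.6% of all tested genes were. Against whole cells, pseudopodia had 5 of the 7 lower and 0 higher, where 33.1% and 27.9% of all genes were. Cell bodies against whole cells had 0 lower and 3 higher, where 20.5% and 18.1% of all genes were. Of 8 adipocyte markers, FABP4 was at 0 in all libraries and ADIPOQ in all but cell body replicate 2, and the highest was PPARG, at 7.72 to 8.52 TPM in pseudopodia, 10.01 to 12.1 TPM in cell bodies and 3.34 to 3.65 TPM in whole cells. PLIN1 and PLIN4 were highest in whole cells, at up to 1.38 and 2.64 TPM. The 8 summed to 9.60 to 10.3 TPM in pseudopodia, 11.9 to 14.9 TPM in cell bodies and 7.55 to 7.96 TPM in whole cells. Of 5 blood markers, the leukocyte gene PTPRC stayed at or under 0.122 TPM, while CD34 lay between 21.3 and 33.6 TPM. CD14 had 6.495 to 8.44 TPM in pseudopodia, 26.1 to 31.7 TPM in cell bodies and 6.02 to 7.08 TPM in whole cells. The 5 summed to 30.1 to 36.8 TPM in pseudopodia, 56.1 to 61.6 TPM in cell bodies and 40.1 to 41.6 TPM in whole cells. The part of these markers in the results below was not tested. These are bulk fractions, in which fewer molecules of an mRNA and more of all other RNA cannot be told apart.

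The members together made up 0.0970% ± 0.0039 of TPM in pseudopodia, 0.140% ± 0.0092 in cell bodies and 0.110% ± 0.0026 in whole cells (SD, n = 3 each). The 3 ranges did not overlap, with cell body highest and pseudopodia lowest. As a share of counts, which weights long mRNAs more, the same sums were 0.161% ± 0.0103, 0.193% ± 0.0071 and 0.158% ± 0.0012 in the same order of groups, so on that scale pseudopodia were not below whole cell. On the TPM scale, which is per transcript length and so allows genes to be set side by side, ACLY, LSS and FASN were the most abundant members over the 9 libraries, at means of 133, 100.5 and 89.0 TPM. ACLY, which makes cytosolic acetyl-CoA from citrate, had 125, 129 and 140 TPM in pseudopodia, 125, 170 and 182 TPM in cell bodies and 112, 105 and 112 TPM in whole cells. LSS, the lanosterol synthase, had 82.5, 76.2 and 97.4 TPM in pseudopodia, 101, 110 and 117 TPM in cell bodies and 109, 104 and 108 TPM in whole cells. FASN, the fatty acid synthase, had 105, 91.5 and 123 TPM in pseudopodia, 76.5, 104 and 95.5 TPM in cell bodies and 72.4, 63.0 and 70.0 TPM in whole cells. CYP51A1, the lanosterol demethylase, was the least abundant at a mean of 1.57 TPM. Its exons overlap those of 2 other genes on the same strand, so this level is uncertain. ACACA stood 8th among the 31 in pseudopodia but 20th in cell body and 15th in whole cell, and ELOVL6 stood 28th, 25th and 14th.

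**Figure D1:**
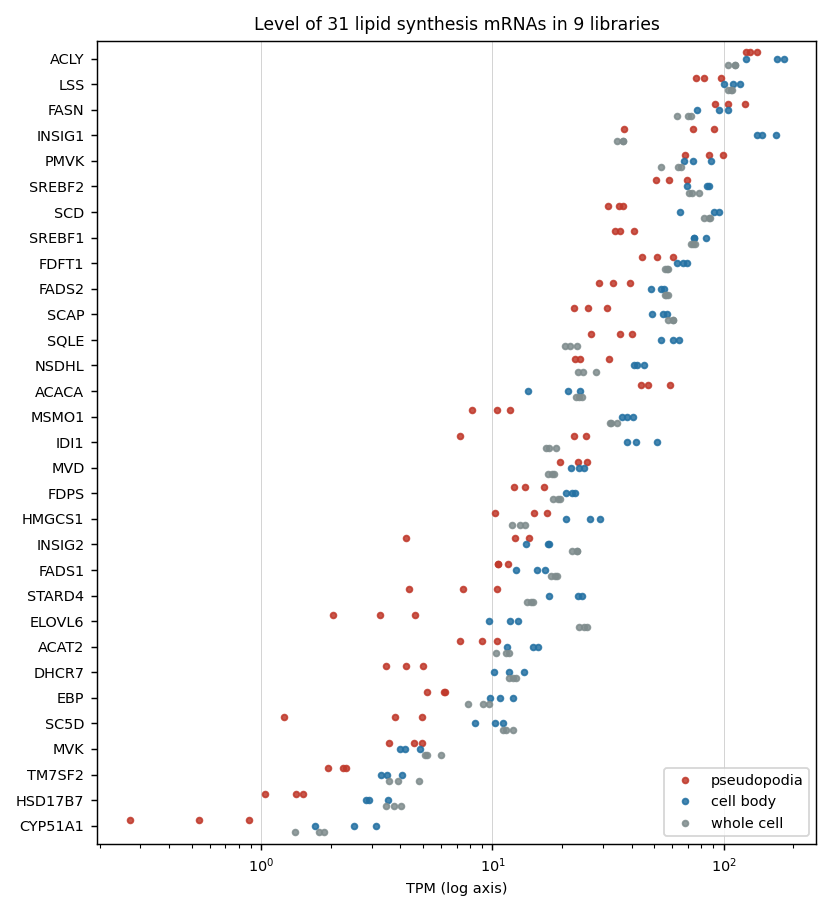
Deposited TPM of each of the 31 members (log axis), ordered by the mean over all libraries. Each point is a library, coloured by group (3 per group). ACLY is highest and CYP51A1 lowest, although the level of CYP51A1 is uncertain. The pseudopodia points of ACACA lie to the right of both other groups, and those of ELOVL6, MSMO1, SC5D and DHCR7 lie to the left.

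Pseudopodia were compared with cell bodies to see which of these mRNAs differ between material from the lower and the upper side of the membrane. In pseudopodia, 2 of the 31 members were higher and 14 lower, and 15 did not pass the test. Over all tested genes 18.6% were called higher and 19.9% lower. The median log2 fold change was -0.44 for the members and -0.05 for all genes. On log2(TPM + 1) tested with limma, which shifted the median of all genes to -0.17, 1 member was called higher (ACACA) and 24 lower, where 11.9% of all genes were called higher and 30.4% lower. The 2 higher members, ACACA and FASN, carry out the committed step and the chain assembly of fatty acid synthesis, while the enzymes that then elongate and desaturate the chain, ELOVL6 and SCD, were lower. Fold changes below are on TMM-scaled CPM, which are read counts relative to library size, tested by edgeR's quasi-likelihood method with Benjamini-Hochberg adjustment over all 19426 genes and called under 0.05.

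ACACA, the cytosolic acetyl-CoA carboxylase that makes malonyl-CoA, had 180, 162 and 235 CPM in pseudopodia, against 45.1, 67.8 and 73.9 CPM in cell body. The lowest pseudopodia library was above every cell body library. The log2 fold change was 1.63 ± 0.19 (SE; 3.09-fold; edgeR adjusted p = 6.28e-05), and the call held in all 22 alternative fits. FASN had 286, 242 and 354 CPM in pseudopodia, against 173, 238 and 212 CPM in cell body. The nearest libraries of the 2 groups lay close together, and the log2 fold change was 0.50 ± 0.16 (edgeR adjusted p = 0.0309). That call was lost in 10 of 22 alternative fits, among them those without pseudopodia replicate 1, pseudopodia replicate 3, cell body replicate 1, cell body replicate 3 or whole cell replicate 3, and after correction for GC content and length its log2 fold change was -0.08.

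CYP51A1 had 1.08, 0.639 and 0.347 CPM in pseudopodia, against 1.73, 2.59 and 3.12 CPM in cell body (log2 fold change -1.83 ± 0.36; edgeR adjusted p = 0.00204). These rest on 75, 47 and 18 reads in pseudopodia, against 101, 156 and 219 in cell body. Its exons overlap those of 2 genes on the same strand, AC000120.2 and AC000120.3, which were listed at 0 in all 9 libraries, and the genome holds 3 named pseudogenes, so its level is uncertain. MSMO1, the sterol methyl oxidase that acts soon after, had 9.92, 8.49 and 7.18 CPM in pseudopodia, against 26.3, 25.5 and 27.3 CPM in cell body. All 3 pseudopodia libraries were under the cell body libraries by a margin far wider than the spread in either group (log2 fold change -1.63 ± 0.15; edgeR adjusted p = 7.46e-06).

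ELOVL6, which lengthens palmitate, had 6.99, 9.53 and 4.57 CPM in pseudopodia, against 22.7, 21.2 and 16.6 CPM in cell body (log2 fold change -1.52 ± 0.23; edgeR adjusted p = 0.000378). SCD, which puts the first double bond into stearate and palmitate, averaged 53.5 ± 6.2 CPM in pseudopodia and 106 ± 21 CPM in cell body (SD, n = 3 each; log2 fold change -0.99; edgeR adjusted p = 0.000507). Neither pair of groups overlapped. The TPM ratio of ACACA to SCD was 1.34, 1.39 and 1.59 in the pseudopodia libraries, against 0.221, 0.232 and 0.25 in the cell body libraries; this pair was picked after its values were seen. FADS1 and FADS2, the desaturases of polyunsaturated chains, had log2 fold changes of -0.17 and -0.34 and did not pass the test (edgeR adjusted p = 0.340 and 0.0896). Limma on log2(TPM + 1) called both lower (-0.42 and -0.62). FADS2 was also called lower with the GC and length correction (-0.60) and without pseudopodia replicate 3 (-0.49).

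**Figure D2:**
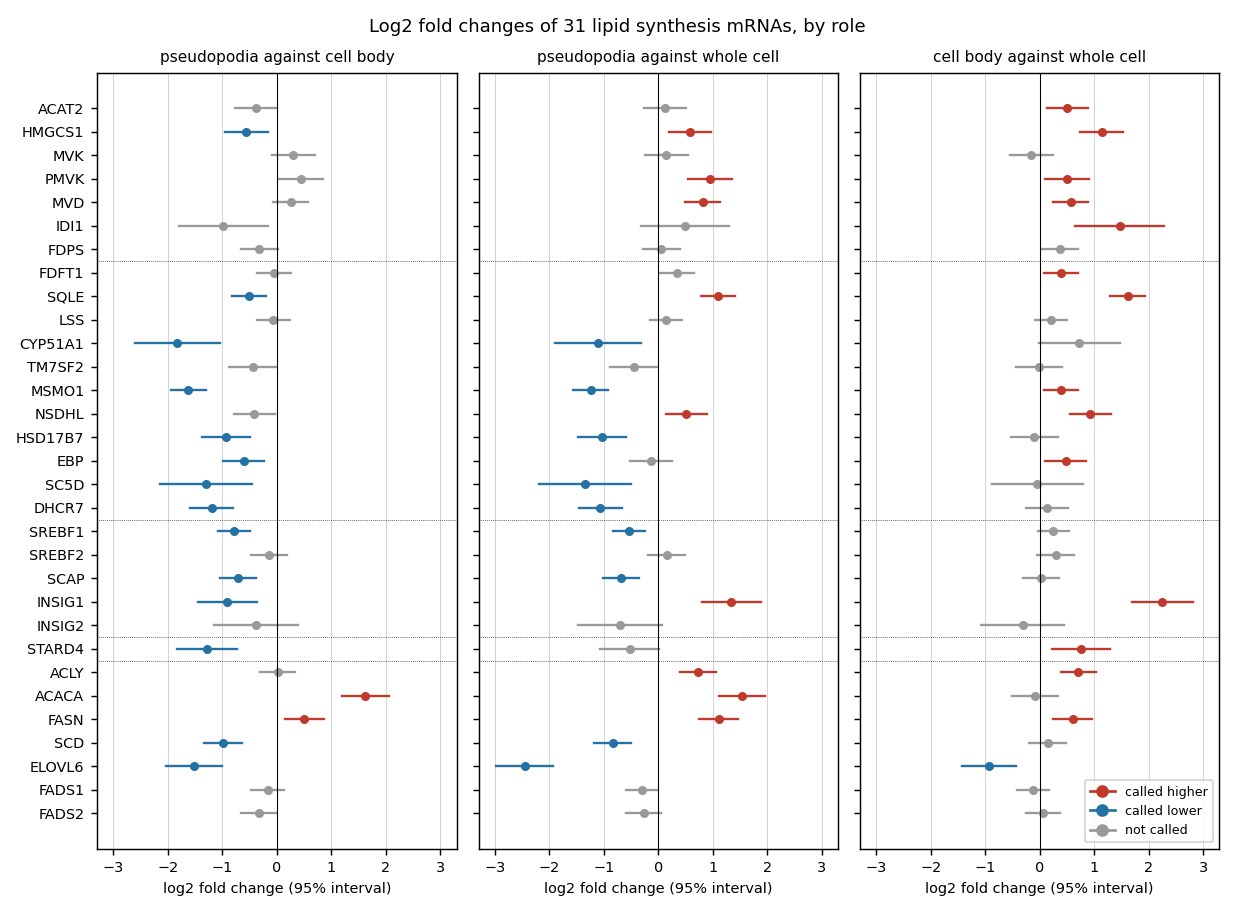
Log2 fold change (point) and 95% interval (line) of the 31 members in each comparison, grouped by role from the mevalonate enzymes at the top to fatty acid synthesis at the bottom. Red marks members called higher, blue members called lower and grey those not called: 2, 14 and 15 for pseudopodia against cell body, 9, 9 and 13 for pseudopodia against whole cell, and 14, 1 and 16 for cell body against whole cell.

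Among the 11 enzymes from squalene to cholesterol, 7 were lower in pseudopodia than in cell body and none higher, with a median log2 fold change of -0.61. Limma on log2(TPM + 1) called all 11 lower. Over all genes 19.9% were lower in the fit reported and 30.4% in the fit on log2(TPM + 1). SC5D, a sterol desaturase, had 11.2, 14.2 and 3.90 CPM in pseudopodia, against 27.1, 20.7 and 24.6 CPM in cell body (log2 fold change -1.31 ± 0.38; edgeR adjusted p = 0.0219). Pseudopodia replicate 3 was far below the other two libraries of its group, and the call was lost without cell body replicate 1 (and without cell body replicate 3). DHCR7, the reductase of the last step, had 8.51, 6.78 and 10.6 CPM in pseudopodia, against 17.0, 19.9 and 22.3 CPM in cell body (log2 fold change -1.19 ± 0.18; edgeR adjusted p = 0.000324). HSD17B7, a ketosteroid reductase of the demethylating complex, EBP, the sterol isomerase, and SQLE, the squalene monooxygenase, had log2 fold changes of -0.94, -0.61 and -0.52. HSD17B7 was no longer called after correction for GC content and length (log2 fold change -0.46), EBP on leaving out cell body replicate 1 or pseudopodia replicate 1, and SQLE without cell body replicate 3. The remaining 4, FDFT1 (squalene synthase), LSS, TM7SF2 (a sterol reductase) and NSDHL (a sterol dehydrogenase), lay between -0.44 and -0.05 and did not pass the test in this fit. HSD17B7 has 2 named pseudogenes, and TM7SF2 shares exon sequence on the same strand with VPS51, so reads may have been assigned to either.

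Of the 7 mevalonate enzymes, only HMGCS1, the cytosolic HMG-CoA synthase, was called lower in pseudopodia than in cell body. It had 29.5, 32.2 and 21.0 CPM in pseudopodia, against 33.3, 42.9 and 45.7 CPM in cell body (log2 fold change -0.56 ± 0.18; edgeR adjusted p = 0.0271). That call was lost without cell body replicate 2 (and without cell body replicate 3), and its log2 fold change was as small as -0.09 among the alternatives. IDI1, the isopentenyl diphosphate isomerase, had 28.4, 30.9 and 9.53 CPM in pseudopodia, against 53.3, 40.2 and 42.6 CPM in cell body. The groups did not overlap, but the difference did not pass the test (log2 fold change -0.98 ± 0.36; edgeR adjusted p = 0.0584). IDI1 was called lower by DESeq2 (adjusted p = 0.0109), with the GC and length correction (edgeR adjusted p = 0.0344), and without pseudopodia replicate 2 or pseudopodia replicate 3 (log2 fold changes -1.26 and -0.61). The kinases MVK and PMVK and the decarboxylase MVD had log2 fold changes between 0.25 and 0.44, and the thiolase ACAT2 and the farnesyl diphosphate synthase FDPS had -0.38 and -0.32, none of them called. Without pseudopodia replicate 2, MVK, PMVK and MVD were called higher at 0.45, 0.60 and 0.38, and limma-voom called these 3 too.

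Among the regulators, SREBF1, SCAP and INSIG1 were lower in pseudopodia than in cell body, and SREBF2 and INSIG2 were not called. SREBF1, which encodes the SREBP isoforms best known for fatty acid genes, had 86.1, 78.8 and 104 CPM in pseudopodia, against 149, 170 and 146 CPM in cell body (log2 fold change -0.79 ± 0.13; edgeR adjusted p = 0.000712). SREBF2, the form best known for cholesterol genes, had 129, 109 and 161 CPM in pseudopodia, against 127, 157 and 155 CPM in cell body, and these ranges overlapped (log2 fold change -0.14, 95% interval -0.48 to 0.20; edgeR adjusted p = 0.495). The TPM ratio of SREBF2 to SREBF1 was 1.63, 1.5 and 1.68 in pseudopodia, against 0.934, 1.01 and 1.16 in cell bodies, and 1.04, 0.974 and 0.995 in whole cells. This ratio was not among the planned measures.

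SCAP, the escort of SREBP, had 47.8, 40.1 and 60.6 CPM in pseudopodia, against 74.5, 84.7 and 85.2 CPM in cell body (log2 fold change -0.72 ± 0.15; edgeR adjusted p = 0.00319). INSIG1 had 78.7, 93.5 and 41.5 CPM in pseudopodia, against 129, 125 and 147 CPM in cell body (log2 fold change -0.91 ± 0.24; edgeR adjusted p = 0.0130). With only the 6 libraries compared, INSIG1 was not called (edgeR adjusted p = 0.0564). Every pseudopodia library was below every cell body library for both genes. INSIG2 had 14.4, 16.1 and 5.13 CPM in pseudopodia, against 16.7, 13.5 and 16.5 CPM in cell body, which overlapped (log2 fold change -0.39, 95% interval -1.15 to 0.38). STARD4, a soluble protein that carries sterol between membranes, averaged 12.3 ± 4.7 CPM in pseudopodia and 30.02 ± 4.8 CPM in cell body (SD, n = 3 each; log2 fold change -1.28; edgeR adjusted p = 0.00197).

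**Figure D3:**
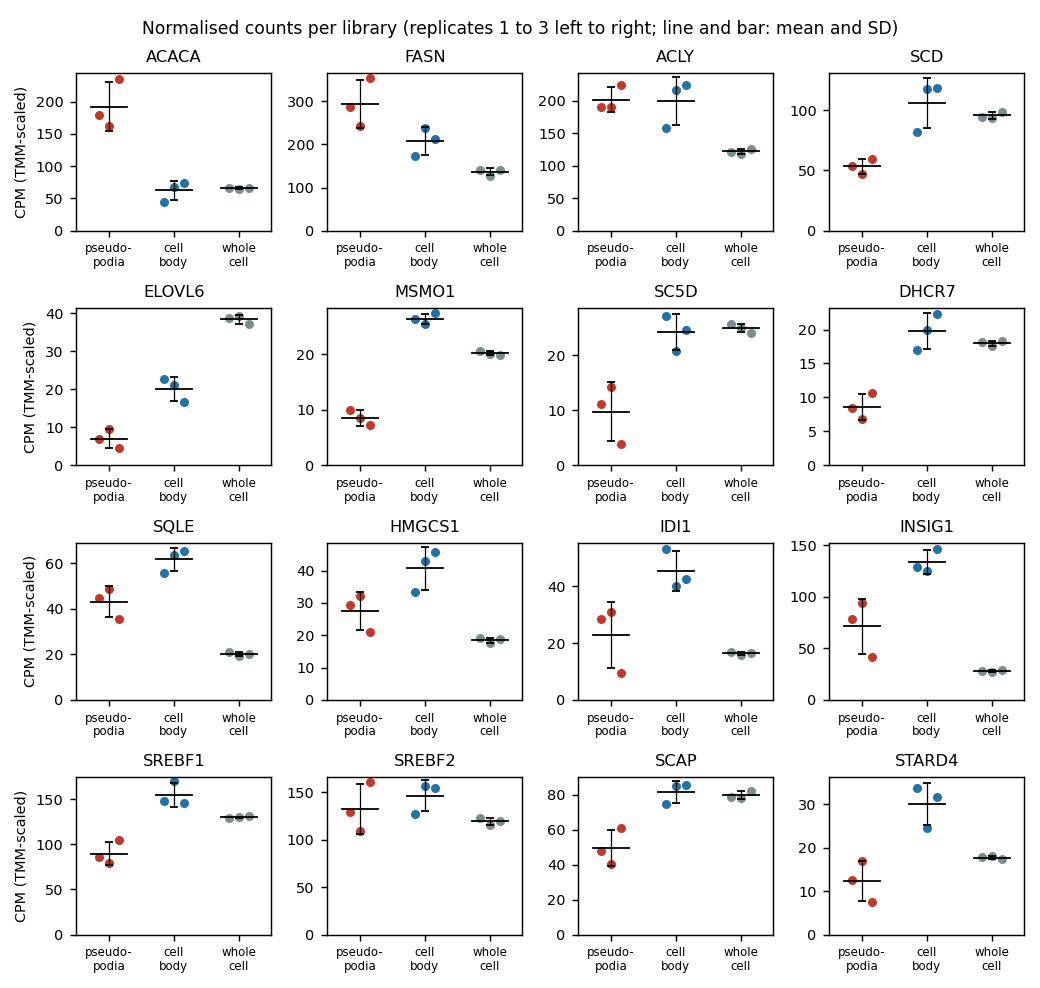
TMM-scaled CPM of 16 members in each library (points, replicates 1 to 3 from left to right), with the mean and SD of each group of 3. ACACA is high in pseudopodia alone, SQLE, HMGCS1, IDI1 and INSIG1 are highest in cell body, and ELOVL6 is lowest in pseudopodia.

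Grouped by where the encoded protein resides, the 20 members whose products lie in the ER or nuclear membrane had 0 called higher and 12 lower in pseudopodia against cell body, with a median log2 fold change of -0.66. The 11 with products in the cytosol or peroxisome had 2 called higher and 2 lower, with a median of 0.01, against -0.05 for all genes. That median was -0.08 with the GC and length correction, -0.26 on log2(TPM + 1) and -0.07 without pseudopodia replicate 3, while the ER group's stayed between -0.81 and -0.66 under the same changes. The summed level of the ER group was 501 to 512 TPM in pseudopodia, against 842 to 958 TPM in cell body. That of the cytosolic group was 430 to 497 TPM in pseudopodia, against 468 to 534 TPM in cell body, and these overlapped. Over all genes 18.6% were called higher and 19.9% lower, so the cytosolic counts were near the background. After correction for GC content and length, with 21.7% of all genes higher and 21% lower, the counts were 0 higher and 15 lower for the ER group and 1 higher and 3 lower for the cytosolic group. ER chaperone and translocon mRNAs moved alongside: of 20 such genes 18 were lower in pseudopodia than in cell body and 0 higher, and their summed level was 2111 to 2404 TPM in pseudopodia, 5780 to 6051 TPM in cell bodies and 4983 to 5102 TPM in whole cells. Their part in the members' values was not tested.

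Replicates within pseudopodia differed with base composition. The CPM of pseudopodia replicate 3 divided by the mean of replicates 1 and 2 was 0.307 for SC5D, 0.321 for IDI1, 0.336 for INSIG2, 0.403 for CYP51A1 and 0.482 for INSIG1, against 1.34 for FASN and 1.37 for ACACA. Over the 9 members whose longest transcript has under 45% GC the median ratio was 0.517, over the 10 between 45% and 55% it was 1.17 and over the 12 above 55% it was 1.34. Over all tested genes of the same classes the medians were 0.616, 1.13 and 1.33. Members of a class could differ: INSIG1 and ACACA both lie in the middle class (46% and 48.7% GC), and HSD17B7, at 41.7% GC, had a ratio of 1.32. In pseudopodia against cell body, 7 of the 9 members under 45% GC were called lower, where 25% of all genes of that class were; of the 12 above 55% GC, 3 were called lower (DHCR7, SREBF1 and SCAP) and 1 higher (FASN), where 14.8% and 28.4% of all genes were. Without pseudopodia replicate 3 the ER group had 0 members called higher and 14 lower, where 18.6% and 22.1% of all genes were.

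**Figure D4:**
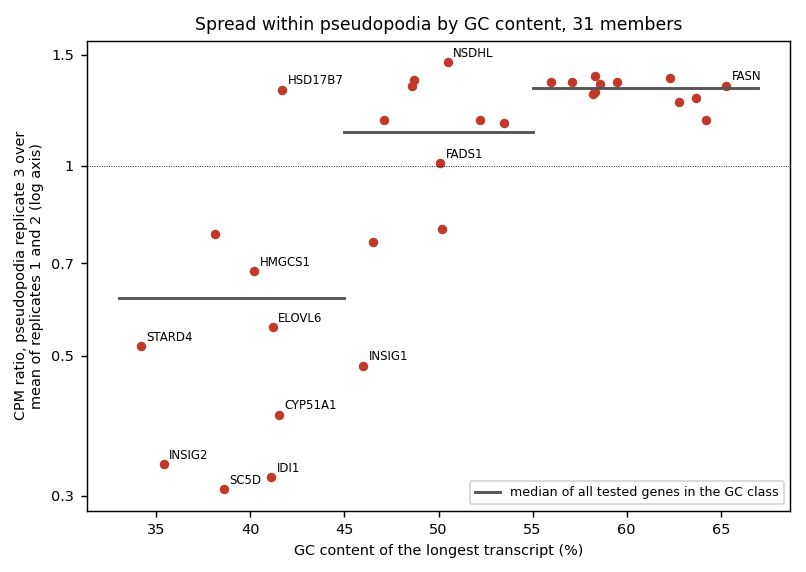
CPM ratio of pseudopodia replicate 3 to the mean of pseudopodia replicates 1 and 2 (log axis) against GC content of the longest transcript, for the 31 members (points). Grey lines are medians of all tested genes under 45%, from 45% to 55% and above 55% GC (0.616, 1.13 and 1.33). GC-poor members such as SC5D, IDI1 and INSIG2 lie near 0.3, although HSD17B7 is at 1.32, and GC-rich ones lie between 1.18 and 1.39.

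Pseudopodia were also set against whole cells, where 9 members were higher, 9 lower and 13 not called. Over all tested genes 27.9% were called higher and 33.1% lower, and the median log2 fold change was 0.05 for the members and -0.12 for all genes. On log2(TPM + 1) limma called 6 members higher and 17 lower, near the 16.6% and 49.9% of all genes. The members' median turned to -0.40 on log2(TPM + 1), -0.23 with the GC and length correction and -0.10 without pseudopodia replicate 3. The mevalonate enzymes HMGCS1, PMVK and MVD, the sterol enzymes SQLE and NSDHL, the regulator INSIG1, and ACLY, ACACA and FASN were higher. HMGCS1 and ACLY lost that call on log2(TPM + 1), with log2 fold changes of 0.09 and 0.26, and HMGCS1 also under a filter of 5 CPM in 3 libraries. ELOVL6, SCD, CYP51A1, MSMO1, HSD17B7, SC5D, DHCR7, SREBF1 and SCAP were lower. By location, 6 of the 11 cytosolic members were higher and 0 lower, and 3 of the 20 ER members were higher and 9 lower, with medians of 0.58 and -0.49. On log2(TPM + 1) the cytosolic group had 4 higher and 2 lower (median 0.09), and the ER group 2 and 15 (median -0.76). With the GC and length correction the medians were 0.57 and -0.40. Both comparisons with pseudopodia use the same 3 pseudopodia libraries.

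ELOVL6 had the largest difference of all members, with 6.99, 9.53 and 4.57 CPM in pseudopodia, against 38.9, 39.5 and 37.2 CPM in whole cell (log2 fold change -2.45 ± 0.24; 5.47-fold lower; edgeR adjusted p = 7.97e-06). ACACA had 180, 162 and 235 CPM in pseudopodia, against 66.5, 64.8 and 66.8 CPM in whole cell (log2 fold change 1.54 ± 0.19; edgeR adjusted p = 4.93e-05). INSIG1 had 78.7, 93.5 and 41.5 CPM in pseudopodia, against 27.8, 27.4 and 28.97 CPM in whole cell (log2 fold change 1.34 ± 0.24; edgeR adjusted p = 0.000836). Even the low replicate 3 of INSIG1 in pseudopodia lay above all whole-cell libraries. SC5D averaged 9.75 ± 5.29 CPM in pseudopodia and 24.9 ± 0.8 CPM in whole cell (SD, n = 3 each; log2 fold change -1.35; edgeR adjusted p = 0.0119). MSMO1 averaged 8.53 ± 1.37 CPM in pseudopodia and 20.2 ± 0.4 CPM in whole cell (log2 fold change -1.24; edgeR adjusted p = 2.70e-05), although after correction for GC content and length its log2 fold change was -0.30 and it was not called. FASN averaged 294 ± 57 CPM in pseudopodia and 137 ± 8 CPM in whole cell (log2 fold change 1.11; edgeR adjusted p = 0.000171), a call kept in all alternative fits.

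SREBF1 and SCAP were lower in pseudopodia than in whole cell by -0.53 and -0.69 on the log2 scale (edgeR adjusted p = 0.00449 and 0.00231). SREBF2 and INSIG2 had log2 fold changes of 0.15 and -0.70 and did not pass the test. With the GC and length correction both changed sign and were called, SREBF2 at -0.24 (edgeR adjusted p = 0.0136) and INSIG2 at 0.52 (edgeR adjusted p = 0.00964). INSIG2 was instead called lower without pseudopodia replicate 2 or pseudopodia replicate 3 (log2 fold changes -0.97 and -0.33). CYP51A1 (-1.10) and NSDHL (0.52) were called, but both lost the call without whole cell replicate 1 (and without whole cell replicate 3), and CYP51A1 also without pseudopodia replicate 2. With the GC and length correction CYP51A1 (-0.51), HSD17B7 (-0.36) and NSDHL (0.37) were not called. STARD4, at -0.52 and not called, was called higher at 1.01 with that correction and lower at -0.81 without pseudopodia replicate 2. Of the 18 calls in this comparison, 11 held in every alternative fit.

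The cell body was then set against the whole cell. Here 14 members were higher, 1 was lower and 16 did not pass the test, while 18.1% of all tested genes were called higher and 20.5% lower. The median log2 fold change was 0.38 for the members and -0.06 for all genes. The higher members included 5 of the 7 mevalonate enzymes and 5 of the 11 squalene and sterol enzymes, with INSIG1, STARD4, ACLY and FASN. The cell body libraries had been through the insert procedure given in the protocols, and for the whole-cell libraries that procedure is not given separately, so a difference of fraction and a difference of handling cannot be told apart.

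INSIG1 had 129, 125 and 147 CPM in cell body, against 27.8, 27.4 and 28.97 CPM in whole cell (log2 fold change 2.25 ± 0.25; 4.77-fold; edgeR adjusted p = 0.000121). Its relative INSIG2 had 16.7, 13.5 and 16.5 CPM in cell body, against 19.02, 19.96 and 18.9 CPM in whole cell, and was not called (log2 fold change -0.31; edgeR adjusted p = 0.502). The TPM ratio of INSIG1 to INSIG2 was 5.89, 6.30 and 8.74 in pseudopodia, 8.39, 10.0 and 9.63 in cell bodies, and 1.58, 1.48 and 1.66 in whole cells. Every library of both fractions lay above the whole-cell libraries on this ratio, which was picked after its values were seen.

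SQLE, often described as a control point of the late pathway, had 55.8, 63.6 and 65.3 CPM in cell body, against 20.8, 19.3 and 20.1 CPM in whole cell (log2 fold change 1.62 ± 0.14; edgeR adjusted p = 1.71e-05). IDI1 had 53.3, 40.2 and 42.6 CPM in cell body, against 16.9, 15.9 and 16.4 CPM in whole cell (log2 fold change 1.47 ± 0.36; edgeR adjusted p = 0.0122). HMGCS1 had 33.3, 42.9 and 45.7 CPM in cell body, against 19.01, 17.4 and 18.8 CPM in whole cell (log2 fold change 1.14 ± 0.18; edgeR adjusted p = 0.000725). For these 3 genes no cell body library came near the whole-cell range. NSDHL had 20.4, 19.99 and 21.5 CPM in cell body, against 10.2, 12.1 and 10.2 CPM in whole cell (log2 fold change 0.93 ± 0.17; edgeR adjusted p = 0.00190). ELOVL6 was the member that fell, with 22.7, 21.2 and 16.6 CPM in cell body, against 38.9, 39.5 and 37.2 CPM in whole cell (log2 fold change -0.93 ± 0.23; edgeR adjusted p = 0.00826).

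The other higher members were STARD4 (log2 fold change 0.76), ACLY (0.71), FASN (0.61), MVD (0.57), ACAT2 (0.51), PMVK (0.50), EBP (0.48), FDFT1 (0.39) and MSMO1 (0.39). ACAT2, PMVK, EBP, FDFT1 and MSMO1 stood at edgeR adjusted p between 0.0385 and 0.0497, and each of them lost its call in 11 or more alternative fits, including without each of the whole cell replicates 1, 2 and 3. STARD4 lost it in 8 fits, among them those without cell body replicate 1 or 3 or any whole cell replicate, and FASN without cell body replicate 2 (and without whole cell replicate 2). SREBF1, SREBF2 and SCAP had log2 fold changes of 0.25, 0.29 and 0.03 and did not pass the test. ACACA and SCD also did not pass, at -0.09 and 0.15. In the fit reported, the spread of each gene is estimated over all groups, pseudopodia included. With only the 6 libraries compared, SREBF1 and SREBF2 were called higher (edgeR adjusted p = 0.0124 and 0.00903), as were FDPS, LSS and CYP51A1. Over all genes 28% were then called higher and 29% lower.

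Across the 3 comparisons of the fit reported, 8 members were called in none: MVK, FDPS, LSS, TM7SF2, SREBF2, INSIG2, FADS1 and FADS2. Each of them was called in some alternative fit. FADS2, for example, was lower in pseudopodia than in cell body and whole cell with the GC and length correction (log2 fold changes -0.60 and -0.66). HMGCS1, SQLE and INSIG1 had the order cell body, pseudopodia, whole cell with all 3 differences called, and ELOVL6 had the order whole cell, cell body, pseudopodia with all 3 called. CYP51A1, HSD17B7, SC5D, DHCR7, SREBF1, SCAP and SCD were lower in pseudopodia than in both other groups, which were not called apart, although with the GC and length correction HSD17B7 lost both calls and CYP51A1 the call against whole cell. ACACA was higher in pseudopodia than in both other groups, which were not called apart either. By mean CPM, 10 members had the order cell body, pseudopodia, whole cell, and 9 the order cell body, whole cell, pseudopodia. Another 6 had the order whole cell, cell body, pseudopodia. Pseudopodia were highest for the remaining members, 4 with cell body next (PMVK, MVD, ACLY and FASN) and 2 with whole cell next (MVK and ACACA).

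Lists of neighbouring pathway genes, chosen with earlier results of these data known, were read in the same fit, and the genes named from them are those called with the largest differences. The shares of all genes were 18.6% higher and 19.9% lower for pseudopodia against cell body. For fatty acid elongation, desaturation and activation, 21 of 25 genes were tested, and pseudopodia had 2 of them higher and 13 lower than the cell body. HACD3, a dehydratase of the elongation cycle, averaged 18.5 ± 1.7 CPM in pseudopodia and 73.1 ± 6.2 CPM in cell body (log2 fold change -1.98; edgeR adjusted p = 8.63e-07). ELOVL4 and HSD17B12, an elongase and the ketoreductase of the same cycle, had log2 fold changes of -2.20 and -2.19, with HSD17B12 at 4.92 ± 3.23 CPM in pseudopodia and 22.6 ± 4.8 CPM in cell body. Of 10 genes for SREBP processing and sterol-regulated degradation, 8 were lower and 0 higher. MBTPS2, a protease that releases SREBP from the membrane, averaged 6.85 ± 1.51 CPM in pseudopodia and 30.03 ± 6.6 CPM in cell body (log2 fold change -2.13; edgeR adjusted p = 1.36e-05). ERLIN1 and ERLIN2, ER proteins that bind cholesterol, had log2 fold changes of -1.63 and -1.62.

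Among 17 genes for sterol uptake, transport and storage, 9 had lower and 2 higher levels in pseudopodia than in cell bodies. NCEH1 and LIPA, which hydrolyse cholesteryl esters, had log2 fold changes of -2.37 and -2.18, and SOAT1, which forms those esters, had -1.51. Of 11 genes of the isoprenoid branches, 4 were lower and 0 higher, led by LBR, a sterol reductase of the nuclear envelope (log2 fold change -1.68). Of 7 tested genes of LXR signalling and sterol efflux, 1 was higher (NR1H2, which encodes an LXR, 0.41) and 2 were lower (SMPDL3A, -1.77, and LPCAT3, -1.11).

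In cell body against whole cell the same lists had 2 higher and 1 lower of 21 for fatty acid elongation and activation, 3 and 0 of 10 for SREBP processing, 6 and 1 of 17 for uptake, transport and storage, 2 and 0 of 11 for isoprenoid branches, and 2 and 0 of 7 for LXR and efflux. Over all genes 18.1% were called higher and 20.5% lower, so several of these counts were near the background. NPC1, which exports cholesterol from lysosomes, averaged 146 ± 38 CPM in cell body and 47.6 ± 0.1 CPM in whole cell (log2 fold change 1.61; edgeR adjusted p = 0.000103). SPRING1, a cofactor of SREBP cleavage, averaged 59.3 ± 11.2 CPM in cell body and 34.9 ± 1.3 CPM in whole cell (log2 fold change 0.77; edgeR adjusted p = 0.00547). OSBPL8, an ER lipid-transfer protein, went the other way, with 63.9 ± 8.7 CPM in cell body and 273 ± 13 CPM in whole cell (log2 fold change -2.10; edgeR adjusted p = 0.00441).

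In pseudopodia against whole cell these lists had 2 higher and 12 lower of 21 for fatty acid elongation and activation, 1 and 4 of 10 for SREBP processing, 5 and 9 of 17 for uptake, transport and storage, 1 and 3 of 11 for isoprenoid branches, and 2 and 2 of 7 for LXR and efflux. Over all genes 27.9% were called higher and 33.1% lower, and several of these counts were near those shares. MBTPS2 averaged 6.85 ± 1.51 CPM in pseudopodia and 31.5 ± 0.9 CPM in whole cell (log2 fold change -2.20; edgeR adjusted p = 6.10e-06). LIPA averaged 30.3 ± 3.1 CPM in pseudopodia and 121 ± 2 CPM in whole cell (log2 fold change -2.001; edgeR adjusted p = 4.77e-07).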

How the data were processed

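Whole-number read counts per gene, named as featureCounts output in the labels, and TPM values per library were deposited by the authors. Per the submitters' processing notes, DESeq2 and the build GRCh38 were used. The sources used here do not give the aligner, annotation, strand setting or versions. TMM-scaled counts were tested by edgeR's robust quasi-likelihood method (version 4.0.16, under R 4.3.3) after its expression filter by group, in 1 fit of all 9 libraries without a block, with Benjamini-Hochberg adjustment over 19426 genes and calls under 0.05. CPM values are scaled by TMM, and SE comes from the test statistic. The test was checked on counts simulated with the same spread in every group. The groups of these data differ in spread, and that setting was not checked. Levels use TPM. GC content came from GENCODE 29 for 96.1% of tested genes, and promoters from RefSeq (GRCh38.p14). A count line without values was left out.

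Members and lists were chosen with earlier results of these data known. Named genes were the 6 largest called differences per comparison, the regulators, the 3 most abundant members and, from each list of other genes, up to 3 called genes with the largest difference, of which 1 is not reported here. Alternatives were other scalings and filters, DESeq2 1.42.0, limma 3.58.1 on voom weights and on log2 TPM, only the 6 libraries compared, a replicate block, a GC and length correction, and leaving out each library. Genes with overlapping neighbours, antisense partners or pseudogenes are uncertain, among them FDPS with 8 named pseudogenes, ACAT2 with TCP1, and FADS1 with FADS2. Libraries of a group differed by more than counting noise (chi-square per gene of 5.04 or more).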

Additional observations from a re-analysis of the deposited data

How the results depend on the processing

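Of the calls on members, 9 of 16 for pseudopodia against cell body, 11 of 18 for pseudopodia against whole cell and 7 of 15 for cell body against whole cell held in every fit that tested the gene (CYP51A1 was not tested under the 5 CPM filter). The cause of the changes below was not tested, except that a filter of 5 CPM left 27 members. For pseudopodia against cell body, limma on log2(TPM + 1) and on log2(TPM + 0.1) each called 25 members, 1 higher and 24 lower. Limma-voom called 5 higher, and the 6 libraries alone, the GC and length correction, and that correction with the replicate block each called 1 higher. The 6 libraries alone called 12 members, with HMGCS1, SC5D, INSIG1 and FASN lost. Over all genes that fit called 14.7% higher and 16.5% lower. For pseudopodia against whole cell, limma-voom called 28 with 15 lower, and both TPM fits called 17 lower. For cell body against whole cell, the 5 CPM filter and both TPM fits each called 9 with 8 higher, upper-quartile factors and the replicate block each called 9 higher, and limma-voom called 2 lower. Leaving out each library in turn gave 12 to 20 called (1 to 5 higher, 11 to 18 lower), 16 to 22 called (8 to 10 higher, 8 to 12 lower) and 8 to 20 called (7 to 18 higher, 1 to 2 lower) for the 3 comparisons in that order. Of all genes these fits called 14.3% to 19.9% higher and 15.5% to 22.6% lower in the first comparison. The second had 23.6% to 28.2% and 27.4% to 34.6%, and the third 11.8% to 24.5% and 13.6% to 26.6%. The 5 higher came without pseudopodia replicate 2, where 19.9% of all genes were higher. The 8 called came without whole cell replicate 2, where 13.4% of all genes were higher and 14.9% lower. The members' summed share was 0.161% in pseudopodia, 0.1926% in cell bodies and 0.1584% in whole cells when taken from counts in place of TPM, and 0.0951% to 0.0990%, 0.1355% to 0.1447% and 0.1083% to 0.1108% of TPM without each library.

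Reversed values were as follows, each called except that of FASN. FASN in pseudopodia against cell body was -0.077 with the GC and length correction, with and without the replicate block. In pseudopodia against whole cell, FDPS was -0.400 and -0.422 on TPM, -0.302 with the GC correction and -0.305 with block and GC correction. LSS was -0.328 and -0.332 on TPM and -0.227 with the GC correction, with and without the block. SREBF2 was -0.237 and -0.238, INSIG2 0.515 and 0.510, and STARD4 1.008 and 0.992 with the GC correction, without and with the block. In their deviations from the group mean, same-numbered libraries correlated at -0.081 to 0.09, and libraries of other numbers at up to 0.144. Values this small cannot show whether the numbers pair the samples.

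Over all genes, the fit on log2(TPM + 1) put the median at -0.17 in pseudopodia against cell body, -0.337 in pseudopodia against whole cell and -0.145 in cell body against whole cell, and the share of higher calls was 28.1%, 25% and 30.9%, against 48.2%, 45.7% and 46.9% in the fit reported; upper-quartile factors gave 37.4% for cell body against whole cell. Calls over all genes reached 2310 higher and 5907 lower (TPM + 1), 2297 and 6090 (TPM + 0.1) and 5949 lower (voom), against 3605 and 3870, in pseudopodia against cell body. In pseudopodia against whole cell they were 3227 and 3207 higher (TPM), 9687 lower (TPM + 1) and 7516 calls with 3805 lower (5 CPM), against 5412 and 6430. Cell body against whole cell gave 11967 calls (voom; 5722 higher and 6245 lower), 4667 calls (5 CPM; 2066 lower) and 2338 higher without whole cell replicate 1, against 3521 and 3980 in the fit reported. Promoter letters over all 300 bases, an alternative chosen after seeing the data, gave the sterol response element core in the same number of members, 1. Hydrophobic segments were not run. Low counts limit CYP51A1, HSD17B7, TM7SF2 and EBP.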
